A study of Mus musculus with 9 samples.

Results

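Cytosolic ribosomal protein genes encode the proteins of the large and small subunits of the ribosome that translates nuclear-encoded messages. Members were the array's non-control spots whose gene name is Rpl or Rps followed directly by a digit, or Rplp0, Rplp1, Rplp2 or Rpsa. Kinase names starting Rps6k and pseudogene names were left out. The rule used names alone and no measured value. It found 81 genes out of 36492 gene names on the array, with 50 of the large subunit and 31 of the small subunit, read by 169 of 55681 probes.

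Each ribosome holds a single copy of almost every one of these proteins, so cells make them in near-equal amounts. Most of their messages begin with a pyrimidine run at the cap, the terminal oligopyrimidine (TOP) motif, through which mTOR signalling sets how strongly they are translated. The level of a TOP message is therefore only part of what decides how much of the protein is made. In macrophages the demand for ribosomes rises with growth, and several ribosomal proteins also have roles outside the ribosome.

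Total RNA of macrophages from C57BL/6J mice was labelled with Cy3 and hybridised to single-colour Agilent arrays. The 9 arrays form 3 groups of 3. The controls were peritoneal exudate cells (PECs), and the other groups were macrophages taken from a fibrosarcoma (tumour-associated macrophages, TAMs), which the surface marker F4/80 divided into F4/80high and F4/80low cells. Arrays of a group are described as biological replicates, with no word on whether the animals were separate. The p-values therefore measure only how these samples spread, and that spread may be technical. The labels give no treatment, no age and no sort marker besides F4/80. PECs and TAMs differ in organ as well as in tumour, and these cannot be told apart.

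Levels are log2 intensities minus the 75th percentile of the array, with probes kept that passed the well-above-background mark on all arrays of at least 1 group, and the brightest kept probe standing for its gene. Between 36.1% and 38.3% of spots per array were well above background and no spot was saturated. Of the 81 genes, 79 were tested and all 79 were above background on all 9 arrays, so the filter on dim probes did not choose among them. Rpl3l and Rpl10l, which are tissue-restricted copies of Rpl3 and Rpl10, were not above background on all arrays of any group. Adgre1, which encodes F4/80, lay between 5.71 and 6.17 in PECs, between 5.70 and 6.21 in F4/80high TAMs and between 2.45 and 3.44 in F4/80low TAMs. Mertk, a phagocytic receptor of macrophages, lay between -4.28 and -3.20 in F4/80low TAMs and was not above background on all of their arrays. It was the 1 exception: the other 7 of 8 macrophage markers were above background in every group, and the list summed to between 9.15 and 9.73 in F4/80low TAMs, 9.89 to 10.2 in PECs and 9.73 to 10.3 in F4/80high TAMs. Csf1r, the macrophage growth factor receptor and the brightest of the list, lay between 8.43 and 9.29 on all arrays. Cd14 was higher on every F4/80low array (6.22 to 6.96) than on the PEC arrays (5.06 to 5.76). Lyz2 was lower there (4.28 to 5.91 against 7.08 to 8.19), as was Cd68 (4.06 to 4.49 against 5.40 to 5.83). By limma at 0.05, 1 of the 8 was higher and 4 were lower in F4/80low TAMs than in PECs (22.7% and 29.2% of all genes). The list's median log2 fold change was -1.06. The 7 neutrophil markers on the array were above background on all arrays of the F4/80low group. Their summed level (log2) lay between 10.8 and 12.6 there, against 6.89 to 7.27 in PECs and 7.79 to 8.33 in F4/80high TAMs. Csf3r alone, at 6.66 to 7.17 in PECs and 7.74 to 7.83 in F4/80high TAMs, made up most of these last 2 sums. The 8 T cell markers summed to between 4.44 and 5.75 in F4/80low TAMs, 1.69 to 2.65 in PECs and 1.76 to 2.46 in F4/80high TAMs. The part of these other cell types in the ribosomal protein levels was not tested. In bulk RNA, fewer cells of a type and less RNA per cell cannot be told apart.

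Most ribosomal protein messages had somewhat higher levels in both TAM subsets than in PECs, and almost none was called lower. The median level over the 79 genes was 8.30, 8.48 and 8.58 in the PEC arrays, 8.74, 8.60 and 8.64 in the F4/80high arrays and 8.89, 8.76 and 8.88 in the F4/80low arrays. Each of the 6 TAM arrays lay above all PEC arrays, and each F4/80low array lay above all F4/80high arrays. The PEC array lowest in this median, replicate 1, shared its slide with all TAM arrays, and PEC replicates 2 and 3 were on another slide.

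In F4/80high TAMs against PECs, 20 of the 79 genes were higher and 0 were lower by limma with Benjamini-Hochberg adjustment at 0.05. That is 25.3% of the members, against 25.0% of all 16462 genes tested, so the share called higher was near the background. The share called lower was not: 28.0% of all genes were lower, and no member was, also at an unadjusted p under 0.05. In either direction 53.1% of all genes were called. Leaving out 1 array at a time gave between 7 and 20 members higher. The lowest count, 8.86% of members, was without F4/80high replicate 1, where 3434 of the 16462 genes were higher. The log2 fold change was above 0 for 69 of the 79 genes, against 50.1% of all genes, and its median was 0.27, against 0.00215 over all genes. The arrays of the groups did not overlap for 45 members that were higher (31.2% of all genes) and for 0 that were lower (34.0% of all genes).

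In F4/80low TAMs against PECs, 33 of the 79 genes were higher and 1, Rps27l, was lower. The share called higher was 41.8%, against 22.7% of all genes, and 29.2% of all genes were lower. The log2 fold change was above 0 for 76 of 79 genes, against 46.4% of all genes, with a median of 0.37 against -0.09 over all genes. For 55 members the arrays did not overlap and were higher in F4/80low TAMs (26.1% of all genes), and for 2, Rpl31 and Rps27l, they were lower (33.2% of all genes). Both comparisons use the same PEC arrays, so their agreement is not independent. Of the 79 genes, 16 were higher in both, 4 were called higher in F4/80high TAMs alone, 17 were called higher in F4/80low TAMs alone, and 41 were called in neither. These patterns were not counted over all genes, so they cannot be set against a background.

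Between the TAM subsets few members were called on these values, and many more in the deposited table, where 17 of 40 members were lower (27.6% of all genes) with a median of -0.26. Of 79 genes, 0 were higher in F4/80high than in F4/80low TAMs (18.6% of all genes) and 1, Rpsa, was lower (14.0% of all genes), by limma at 0.05. The arrays did not overlap for 3 members that were higher (Rpl9, Rpl24 and Rpl27, against 27.0% of all genes) and for 12 that were lower (19.7% of all genes). At an unadjusted p under 0.05 the counts were 0 higher and 4 lower. With the TAM arrays alone, paired by replicate number, 0 were called lower (12.8% of all genes). The median log2 fold change was -0.08, against 0.08 over all genes, and turned to 0.01 after normexp background correction. An absent call does not show equal levels, and the median standard error of a member in this comparison was 0.162.

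**Figure D1:**
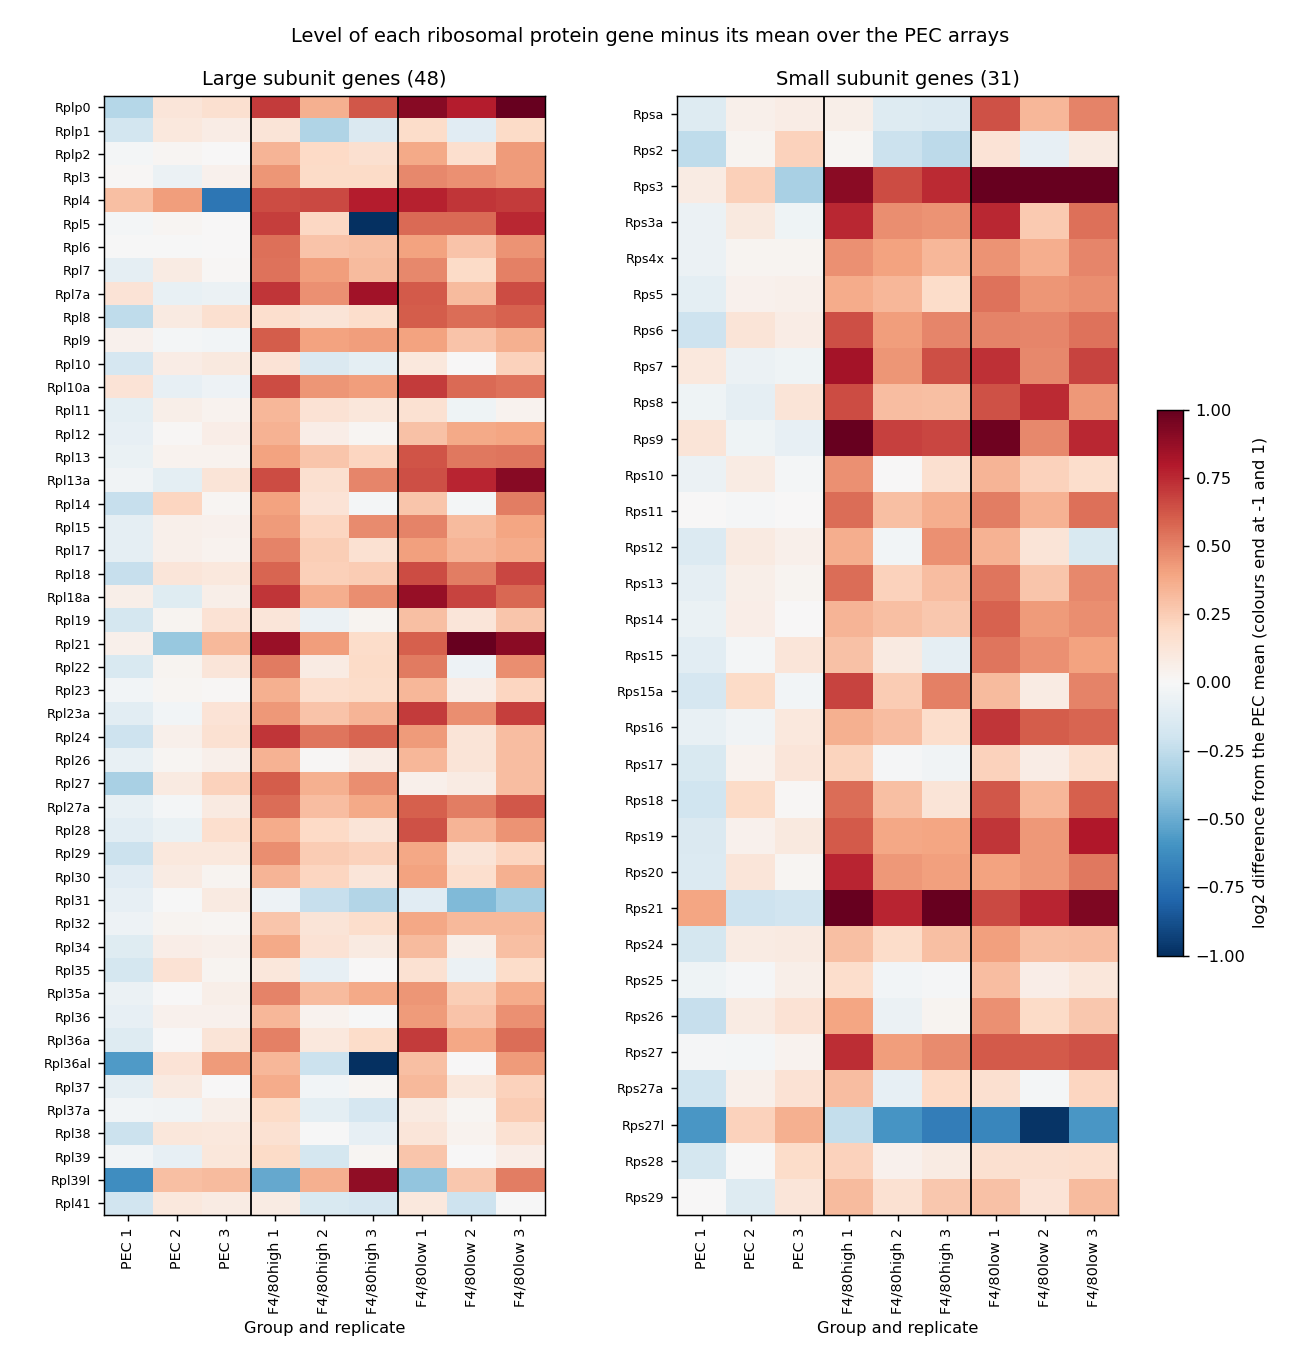
Rows are the 48 large and 31 small subunit genes tested, and columns are the 9 arrays. Colour is the log2 level minus the gene's mean over the 3 PEC arrays and ends at -1 and 1. Most rows are red in all TAM columns. Rps27l is blue in the TAM columns and in PEC replicate 1, and Rpl5 is dark blue in F4/80high replicate 3 alone.

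By subunit, the counts stood differently to the background. Of the 48 large subunit genes tested, 9 were higher in F4/80high and 14 in F4/80low TAMs than in PECs, with median log2 fold changes of 0.24 and 0.35. These are 18.8% and 29.2% of the large subunit genes, below and above the 25.0% and 22.7% of all genes. Of the 31 small subunit genes, 11 and 19 were higher, which is 35.5% and 61.3%, with medians of 0.30 and 0.46. The difference between the subunits was not tested. Standard errors had a median of 0.162 for the members and 0.236 over all genes in F4/80high TAMs against PECs.

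The sizes depend on how arrays are put on a common scale. Centring each array on its median gave 34 higher and 0 lower in F4/80high TAMs (27.6% and 26.4% of all genes) and 52 higher and 0 lower in F4/80low TAMs (28.1% and 24.1%). It moved the median of all genes in F4/80low TAMs against PECs from -0.09 to 0.07. Quantile normalization gave 8 higher and 2 lower (23.1% and 28.6% of all genes), and 20 higher and 2 lower (23.4% and 25.8%). Background correction by normexp gave 11 higher and 1 lower (23.7% and 29.4% of all genes), and 7 higher and 2 lower (20.8% and 32.8%). The median over members was above 0 under each of these, between 0.10 and 0.34 in F4/80high TAMs and between 0.10 and 0.53 in F4/80low TAMs. The PEC and F4/80high arrays overlapped in the member median after quantile normalization, and all groups overlapped after normexp. Under all 4 scalings, 6 genes were called higher in F4/80high TAMs (Rpl24, Rps3, Rps7, Rps9, Rps21 and Rps27). In F4/80low TAMs 5 were (Rpl13a, Rplp0, Rps3, Rps9 and Rps27). Calls shared by the 4 scalings were not counted over all genes, so these counts cannot be set against a background.

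**Figure D2:**
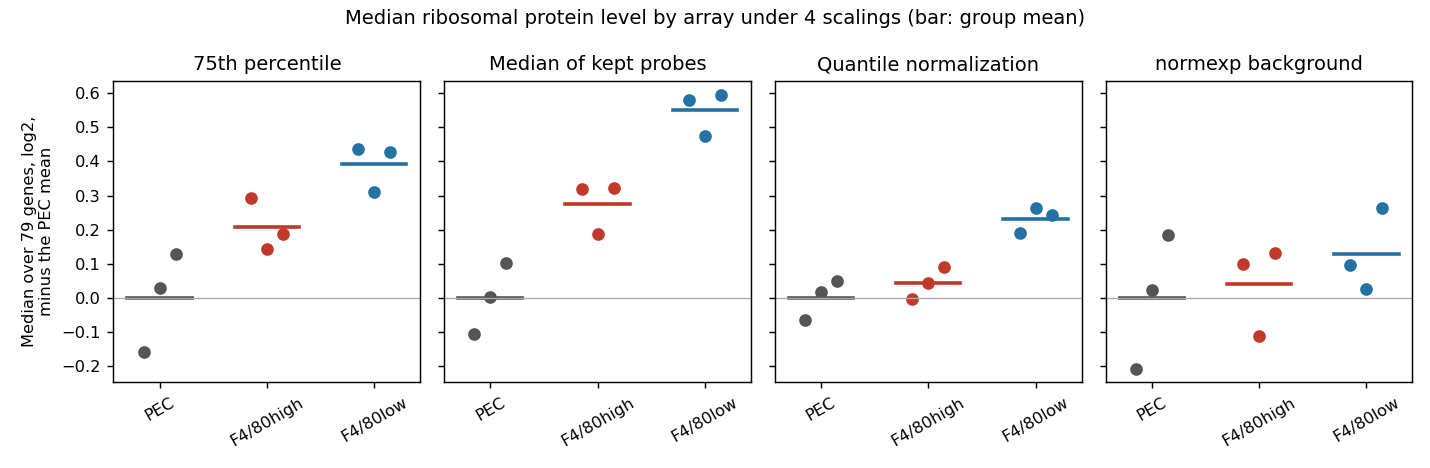
Each point is an array, and the vertical axis is the median log2 level over the 79 genes minus the mean of the 3 PEC arrays. Panels are the 4 scalings, and bars are group means. F4/80low arrays lie above all PEC arrays in 3 panels and overlap with them under normexp.

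With the slide as a block, 5 genes were higher in F4/80high TAMs (16.5% of all genes) and 11 in F4/80low TAMs (13.4% of all genes), with 0 lower in each (17.7% and 16.4% of all genes). The medians were then larger, at 0.39 and 0.47. PEC replicate 1, the lowest PEC array in the member median, is the 1 control on the slide of the TAM arrays, so these values rest on that array and their spread comes from the other arrays. Within the slide that holds the TAM arrays and PEC replicate 1, the medians were also 0.39 and 0.47, against 0.018 and -0.084 over all genes. In each comparison 77 of 79 fold changes were above 0. All of them share that control array, so their signs are not separate observations. The share of all genes above 0 was not counted there. Rplp0 and Rps6 kept their calls in both comparisons under the block. Rps7, Rps9, Rps21, Rps27 and Rpl7a lost both calls under it, and Rps3 lost the F4/80high call.

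The 3 largest rises in F4/80high TAMs were in small subunit genes, Rps21, Rps9 and Rps3. Rps3 lines the mRNA entry channel and is also a DNA repair and NF-kB accessory protein. Its level was 6.84, 6.99 and 6.43 in PECs, 7.66, 7.40 and 7.50 in F4/80high TAMs and 7.84, 7.79 and 7.98 in F4/80low TAMs. No TAM array reached down to a PEC array, and the F4/80low arrays were the highest. The log2 fold change against PECs was 0.77 ± 0.19 (SE, n = 3 per group, limma adjusted p = 0.00715), or 1.70-fold, in F4/80high TAMs and 1.12 ± 0.19 (limma adjusted p = 0.00110), or 2.17-fold, in F4/80low TAMs. A second, dimmer Rps3 probe moved the other way, as described with the probes.

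Rps9, which sits at the shoulder of the small subunit, measured 8.80, 8.62 and 8.58 in PECs, 9.71, 9.35 and 9.33 in F4/80high TAMs and 9.64, 9.15 and 9.42 in F4/80low TAMs. The TAM subsets overlapped each other and lay above PECs. The log2 fold changes were 0.80 ± 0.19 (limma adjusted p = 0.00634) and 0.74 ± 0.19 (limma adjusted p = 0.00991). Rps21 is a small protein of the solvent side of the 40S subunit. It measured 4.48, 3.88 and 3.89 in PECs, 5.27, 4.84 and 5.15 in F4/80high TAMs and 4.75, 4.84 and 5.02 in F4/80low TAMs. PEC replicate 1 was the nearest to the TAM arrays. Its log2 fold changes were 1.00 ± 0.21 (limma adjusted p = 0.00356) and 0.78 ± 0.21 (limma adjusted p = 0.0131), and with the slide as a block they fell to 0.61 and 0.39, no longer past the threshold.

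Rps7 binds MDM2 when free of the ribosome. It measured 7.20, 7.03 and 7.05 in PECs, 7.93, 7.54 and 7.74 in F4/80high TAMs and 7.82, 7.57 and 7.77 in F4/80low TAMs, which placed every TAM array above every PEC array. Its log2 fold changes were 0.64 ± 0.17 and 0.63 ± 0.17. Rps6, the substrate of the S6 kinases and the usual reporter of mTOR activity at the protein level, measured 7.88, 8.22 and 8.17 in PECs, 8.73, 8.51 and 8.58 in F4/80high TAMs and 8.59, 8.58 and 8.63 in F4/80low TAMs. Both subsets were above PECs by nearly the same step, with log2 fold changes of 0.52 ± 0.16 (limma adjusted p = 0.0212) and 0.51 ± 0.16 (limma adjusted p = 0.0234). Phosphorylation of the protein is not seen by these arrays. Normexp and leaving out PEC replicate 1 each ended both Rps6 calls.

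Of the other proteins around the mRNA channel, Rps15 was called higher in F4/80low TAMs alone, at 0.46 ± 0.16. The call was lost in 13 of 21 alternatives. Rps2, an entry channel neighbour of Rps3, had log2 fold changes of -0.15 and 0.05 and passed in neither comparison. That probe was placed at chr17:42864841-42864900 (mm9), far from the dimmer Rps2 probe at chr17:24857583-24857642, which had 0.12 and 0.24.

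In the large subunit, Rplp0 anchors the acidic stalk that recruits elongation factors. It measured 9.23, 9.64 and 9.68 in PECs, 10.22, 9.87 and 10.14 in F4/80high TAMs and 10.42, 10.30 and 10.58 in F4/80low TAMs. The 3 groups did not overlap. Its log2 fold changes against PECs were 0.56 ± 0.19 (limma adjusted p = 0.0300), or 1.47-fold, and 0.92 ± 0.19 (limma adjusted p = 0.00312), or 1.89-fold. The F4/80low call was kept under all 21 alternatives, with values between 0.53 and 1.20, and the F4/80high call was lost in 6 of 21, with values between 0.26 and 0.84. Those 6 were normexp, no filter, the deposited table and leaving out PEC replicate 1 or either of replicates 1 and 3 of the F4/80high group. The other stalk genes did not follow it past the threshold: Rplp1 and Rplp2, the acidic proteins that Rplp0 carries, had log2 fold changes of -0.11 and 0.24 in F4/80high TAMs and of 0.09 and 0.32 in F4/80low TAMs. Rpl12, at the base of the stalk, had 0.14 and 0.36. Rplp0 is often used as a reference gene in quantitative PCR.

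Rpl7a, a core large subunit protein, measured 7.70, 7.49 and 7.50 in PECs, 8.28, 8.02 and 8.40 in F4/80high TAMs and 8.18, 7.88 and 8.22 in F4/80low TAMs. Every TAM array was above the PEC arrays, and the log2 fold changes were 0.67 ± 0.18 and 0.53 ± 0.18. Rpl13a, which as a free protein joins the interferon-induced GAIT complex of myeloid cells, measured 7.26, 7.20 and 7.42 in PECs, 7.94, 7.45 and 7.78 in F4/80high TAMs and 7.93, 8.05 and 8.20 in F4/80low TAMs. It passed in F4/80low TAMs, at 0.77 ± 0.18 (limma adjusted p = 0.00632), and not in F4/80high TAMs, at 0.43 ± 0.18 (limma adjusted p = 0.0675). The difference between the subsets did not pass either, at -0.34 ± 0.18 (limma adjusted p = 0.186). A second, dimmer Rpl13a probe read 3.62, 3.96 and 3.81 in PECs, 4.46, 4.05 and 3.82 in F4/80high TAMs and 5.35, 5.14 and 5.05 in F4/80low TAMs. On that probe the F4/80low arrays stood above all others, the rise against PECs was 1.38 ± 0.20, and the subsets differed by -1.07 ± 0.20 (limma adjusted p = 0.00382 over all probes). Rpl21 rose by 0.85 ± 0.25 in F4/80low TAMs on a dim probe, with levels between -2.25 and -0.84 over all arrays.

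Of the 9 genes of the peptide exit tunnel and its rim, where nascent chains leave the ribosome and targeting factors dock, 0 were called in F4/80high TAMs by limma (2 at an unadjusted p under 0.05) and 1 in F4/80low TAMs, below the 25.0% and 22.7% of all genes called higher. Rpl23a, the docking site of the signal recognition particle, was higher in F4/80low TAMs by 0.62 ± 0.15 (limma adjusted p = 0.00907) and had 0.35 ± 0.15 in F4/80high TAMs. The list's median log2 fold changes were 0.15 and 0.26. Rpl31, at the tunnel rim, had log2 fold changes of -0.19 and -0.30 that did not pass, and its F4/80low arrays (8.36, 8.04 and 8.14) lay just below its PEC arrays (8.39, 8.47 and 8.57). It was the only member besides Rps27l whose F4/80low arrays were all lower. Rpl4, which lines the tunnel's narrowest part, measured 6.58, 6.70 and 5.56 in PECs and between 6.93 and 7.07 on the TAM arrays. PEC replicate 3 stood apart, and the log2 fold changes of 0.70 and 0.73 did not pass.

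Rpl5 and Rpl11 form the 5S particle with the 5S RNA and bind MDM2 when ribosome assembly is disturbed. Rpl11 had log2 fold changes of 0.20 and 0.05. Rpl5 measured 6.10, 6.13 and 6.12 in PECs, 6.81, 6.33 and 2.43 in F4/80high TAMs and 6.68, 6.68 and 6.87 in F4/80low TAMs. Its 1 probe was far lower on F4/80high replicate 3 than elsewhere, and with an SE of 0.92 nothing passed. Among the 162 kept member probes, 1 other was more than 2 log2 units below both replicates of its group. It was a second Rps18 probe on the same array, at 1.16 against 6.96 and 6.55, while the brighter Rps18 probe read 7.36 there. That array also carried 307 spots with the scanner software's outlier mark, against 103 to 174 on the others, and these 2 spots were not among them. Both did carry the separate mark for an outlying local background there, as did 6.68% of the spots of that array and 0.094% to 4.32% of the spots of the others. The part of it in their low values was not tested.

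**Figure D3:**
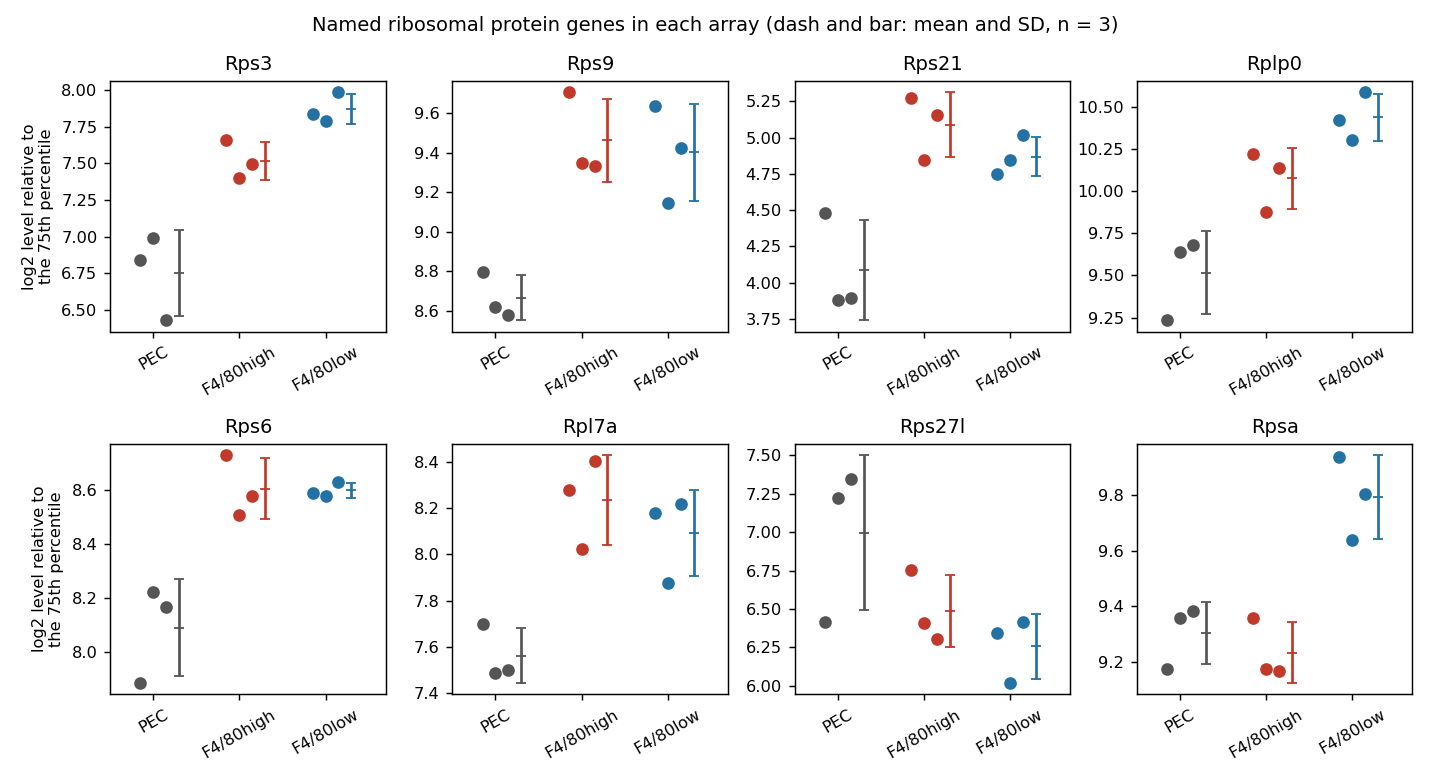
Each panel is a gene, each point an array, and the vertical axis is the log2 level relative to the array's 75th percentile. The dash and bar are the mean and SD of 3 arrays. Rps3, Rps9, Rps21, Rplp0, Rps6 and Rpl7a lie higher in both TAM groups, Rps27l lies lower except for PEC replicate 1, and Rpsa lies higher in F4/80low TAMs alone.

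Paralogues were looked at in pairs. Rps27, called metallopanstimulin, rose from 8.78, 8.78 and 8.83 in PECs to 9.53, 9.22 and 9.27 in F4/80high TAMs and to 9.40, 9.40 and 9.43 in F4/80low TAMs. No arrays overlapped with PECs, and the log2 fold changes were 0.54 ± 0.15 (limma adjusted p = 0.0132) and 0.62 ± 0.15 (limma adjusted p = 0.00777). Rps27l, its p53-induced paralogue, measured 6.42, 7.22 and 7.35 in PECs, 6.75, 6.41 and 6.30 in F4/80high TAMs and 6.34, 6.02 and 6.41 in F4/80low TAMs. The log2 fold changes were -0.51 ± 0.26 (limma adjusted p = 0.133) and -0.74 ± 0.26 (limma adjusted p = 0.0410). PEC replicate 1, the control on the TAM slide, read close to the TAM arrays, and with the slide as a block the F4/80low value was -0.16 (limma adjusted p = 0.680). The paralogue contrast itself was not tested.

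Of the other pairs, Rpl36a was called higher in F4/80low TAMs, at 0.55 ± 0.18, and its copy Rpl36al had 0.24 ± 0.41. Rpl3 was called there at 0.45 ± 0.15, a call lost in 11 of 21 alternatives. Rpl39 and its testis-rich copy Rpl39l passed in no comparison, Rpl39l reading between -1.62 and -0.12. Rps4x was called in both, at 0.40 ± 0.14 and 0.44 ± 0.14. These calls were lost in 12 and 11 of 21 alternatives, among them leaving out any 1 PEC array. Rps27a, made as a fusion with ubiquitin, had 0.14 and 0.12 and passed in neither.

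Rpsa, the ribosomal protein that is also known as the laminin receptor precursor, was the 1 member called between the TAM subsets on its brightest probe. It measured 9.17, 9.36 and 9.38 in PECs, 9.36, 9.17 and 9.17 in F4/80high TAMs and 9.94, 9.64 and 9.80 in F4/80low TAMs. The F4/80high arrays overlapped with PECs, and all F4/80low arrays were higher than both. The log2 fold change of F4/80high against F4/80low TAMs was -0.56 ± 0.16 (limma adjusted p = 0.0241), and it lay between -0.65 and -0.47 over 22 alternatives. The labels name no pairing, but same-numbered TAM arrays deviated together and were taken as pairs. With that block over the TAM arrays alone the adjusted p was 0.0569 by limma, no longer past the threshold. Of its 4 probes, 3 passed on their own, at -0.77, -0.56 and -0.50, and the remaining one had -0.36. The rise against PECs in F4/80low TAMs was 0.49 ± 0.16 (limma adjusted p = 0.0282).

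Several genes are read by more than 1 probe, and for a few of them the probes did not tell the same story. Among 51 genes with several kept probes, all probes had the same sign in 36 for F4/80high TAMs against PECs, 43 for F4/80low TAMs against PECs and 36 between the subsets. Counted over 162 probes, 40 were higher and 8 lower in F4/80high TAMs (24.5% and 28.0% of all kept probes), and 59 were higher and 3 lower in F4/80low TAMs (21.9% and 28.9%). Probes called in opposite directions were found for Rpl27a, Rps3 and Rps24 in F4/80high TAMs and for Rps3 and Rps24 in F4/80low TAMs. These genes were singled out after their values were seen.

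Rps24 makes several transcript forms by alternative use of very short exons near its 3′ end. The probes below are shown because the dimmest, which crosses an intron, moved against the others. Positions are the files' own, on mouse build mm9. The middle-brightness probe lies on chr14:25311190-25312666, a span of 1477 bases that shows it crosses an intron. The dimmest, here the junction probe, lies on chr14:25312695-25315015 and spans 2321 bases. The brightest, here the 3′ probe, lies at chr14:25315021-25315080 without a gap and begins just after the dimmest ends. The middle probe is given whole and the first 30 bases of the dimmest and the brightest, 5′ to 3′, with no capitals.
Rps24 middle probe: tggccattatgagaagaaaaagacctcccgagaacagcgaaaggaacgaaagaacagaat
Rps24 junction probe, first bases: aatgttggtgctggcaaaaagtgagtggag
Rps24 3′ probe, first bases: ttgatgttttgctgtgatgtgcagatttct

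The junction probe measured 5.14, 5.76 and 5.22 in PECs, 3.44, 3.22 and 3.39 in F4/80high TAMs and 4.32, 4.79 and 4.32 in F4/80low TAMs. The 3 groups did not overlap, and F4/80high TAMs were lowest. It fell by 2.02 ± 0.22 on the log2 scale in F4/80high TAMs (limma adjusted p = 6.73e-05 over all probes) and by 0.90 ± 0.22 in F4/80low TAMs (limma adjusted p = 0.00805), and the subsets differed by -1.12 ± 0.22 (limma adjusted p = 0.00421). The middle probe rose by 0.58 ± 0.18 and 0.66 ± 0.18, and the 3′ probe had 0.26 ± 0.15 and 0.34 ± 0.15. The junction probe minus the 3′ probe, taken array by array, averaged -3.67 ± 0.28 (SD, n = 3) in PECs. It averaged -5.96 ± 0.05 in F4/80high TAMs, and the F4/80low average of -4.91 ± 0.32 lay between. These differences are a description, since the pair was chosen after its values were seen, and which transcript each probe binds was not tested.

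The second Rps3 probe lies at chr7:106626430-106626489 (mm9), and the brightest has no position in the files. The second probe measured 3.65, 3.12 and 3.17 in PECs, 2.34, 2.60 and 2.27 in F4/80high TAMs and 2.55, 2.61 and 2.59 in F4/80low TAMs. It was lower on every TAM array, by 0.91 ± 0.19 and 0.73 ± 0.19 on average, opposite to the brightest probe. Averaging both probes turned the Rps3 value in F4/80high TAMs to -0.07. Their first 30 bases are shown because they read the same gene name with opposite results.
Rps3 brightest probe, first bases: gtcttggcgagctgcatctggaggcgattt
Rps3 second probe, first bases: agaaagtgttaatgtgtagccctggctggc

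Rpl22, an exit tunnel neighbour known for a role in T cell development, had a second probe at chr4:151708012-151708071 (mm9), apart from the brightest at chr4:151706515-151706574. The second probe measured 2.60, 2.59 and 2.52 in PECs, 1.34, 1.02 and 0.48 in F4/80high TAMs and 2.54, 2.25 and 2.34 in F4/80low TAMs. It was lower in F4/80high TAMs alone, by 1.62 ± 0.22 against PECs (limma adjusted p = 0.000292). The brightest probe had 0.27 ± 0.21 in the same comparison. Rpl27a showed the like on its dimmest probe, at chr7:116665756-116665815 (mm9), which fell by 0.62 ± 0.20 in F4/80high TAMs while its brightest rose by 0.42 ± 0.15.

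**Figure D4:**
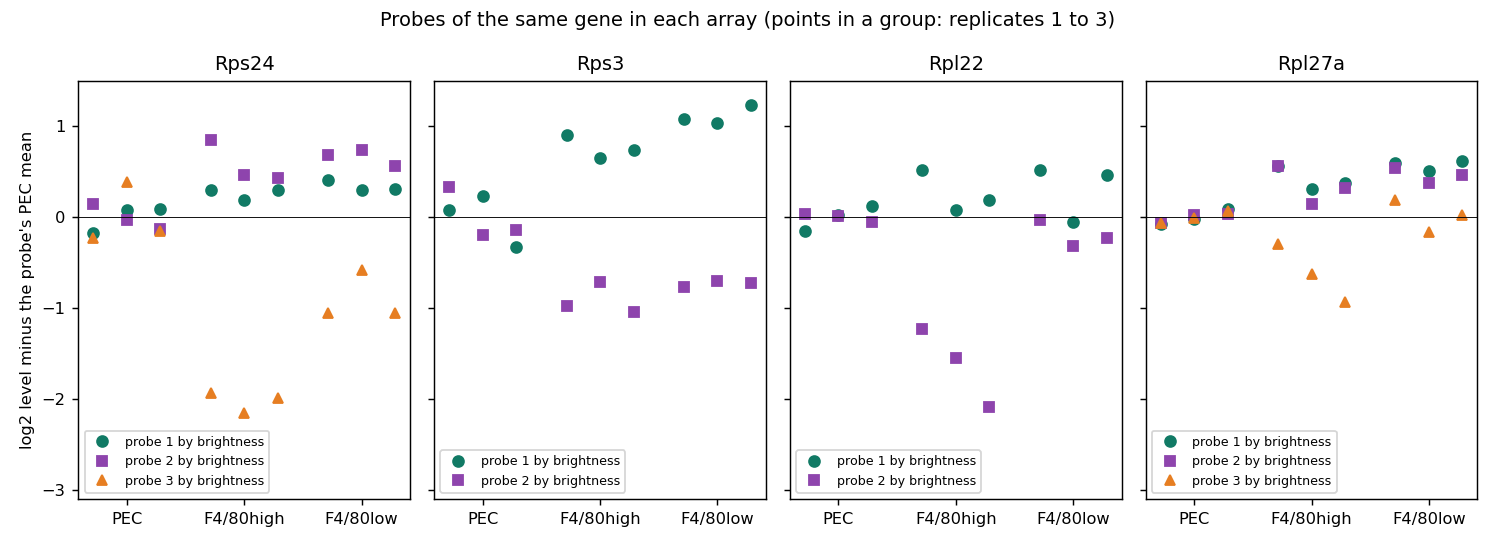
Points are arrays, grouped by PEC, F4/80high and F4/80low, and the vertical axis is a probe's log2 level minus its own PEC mean. Symbols rank the kept probes of a gene by brightness. The dimmest probe of Rps24, the second probes of Rps3 and Rpl22 and the dimmest of Rpl27a lie below 0 in F4/80high TAMs, where the brightest probes lie above 0.

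Ribosomal protein genes have many processed pseudogene copies, and 49 pseudogene names on this array fell outside the rule. Of 168 member probes with a position in the files, 36 span at least 100 bases and so have a gap between the parts they match, and 3 others span 61 to 63 bases. Among 122 probes whose gene has a promoter entry to compare, 7 were placed on another chromosome than that promoter. They belong to Rpl13, Rpl31, Rps4x and Rps27, where all 4 Rps27 probes were placed on chromosome 9. The values given above for Rpl31, Rps4x and Rps27 were read on such probes. This check compared chromosomes only, so it does not count the brightest Rps2 probe, placed elsewhere on chromosome 17. Genes without a promoter entry were left out of it. Rpl36 is such a gene, with a dimmer probe placed on chromosome X and its brightest on chromosome 17. Signal from pseudogene copies was not tested.

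The promoters shared features that the rule did not use. RefSeq promoter windows (GRCm38.p6, 250 bases before to 50 after the annotated start) matched 61 of the 81 genes. From 30 bases before to 25 after the start, 54.1% of member genes held a run of at least 8 pyrimidines on the sense strand, against 24.4% of all 27025 genes in the table. In the same stretch CTCTTT was found in 16.4% of members and 2.53% of all genes, and CTTTCC in 11 of 61 members and 3.19% of all genes, and both can lie inside such a run. In the whole window CCGGAAG, the core bound by ETS factors such as GABP, was found on either strand in 42.6% of members and 9.93% of all genes. TATAAA on the sense strand was found in 8.20% of members and 9.77% of all genes. These matches are descriptions of sequence and not measured sites.

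The windows of 5 genes higher in both TAM subsets are printed from 30 bases before to 25 after the annotated start, 5′ to 3′ on the gene's strand, with the longest pyrimidine run in capitals. They are shown because the run is the sequence that TOP messages share, and were picked among risen genes that hold a long one. Of the 13 genes higher in both subsets that have a window, 7 held a run of at least 8 pyrimidines and 6 did not, Rps3, Rps21 and Rplp0 among them. On GRCm38.p6 they lie at chr4:86857343-86857397 (minus strand) for Rps6, chr3:90213624-90213678 (minus strand) for Rps27, chr7:3704011-3704065 (plus strand) for Rps9, chr2:26910777-26910831 (plus strand) for Rpl7a and chr7:109519165-109519219 (plus strand) for Rpl27a. The last is Rps27l at chr9:66946056-66946110 (plus strand), the member called lower in F4/80low TAMs, at the first of its 2 annotated starts.
Rps6: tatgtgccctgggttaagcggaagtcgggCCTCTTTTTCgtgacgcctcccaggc
Rps27: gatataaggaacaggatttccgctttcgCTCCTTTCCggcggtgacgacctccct
Rps9: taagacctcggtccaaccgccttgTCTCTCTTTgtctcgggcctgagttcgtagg
Rpl7a: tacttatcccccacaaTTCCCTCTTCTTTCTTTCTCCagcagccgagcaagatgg
Rpl27a: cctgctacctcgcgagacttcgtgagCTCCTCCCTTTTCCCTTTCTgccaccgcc
Rps27l: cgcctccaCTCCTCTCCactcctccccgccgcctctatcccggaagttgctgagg

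The run sits across the start in Rps6, Rps27, Rps9, Rpl7a and Rpl27a and lies wholly before it in Rps27l. No link between the run and the fold changes was tested.

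Other genes of the translation apparatus were taken from fixed lists. Rack1, a signalling scaffold on the 40S head whose name falls outside the rule, rose by 0.51 ± 0.16 and 0.65 ± 0.16. Of 16 translation factors and other genes with TOP messages, 5 were higher and 1 lower in F4/80high TAMs, and 5 were higher and 0 lower in F4/80low TAMs. Their medians were 0.22 and 0.35. Of all genes, 25.0% were higher and 28.0% lower in F4/80high TAMs, and 22.7% were higher and 29.2% lower in F4/80low TAMs. The share of this short list called higher was 31.25% in each. Its fold changes were above 0 for 12 and 15 of the 16, against 50.1% and 46.4% of all genes. After normexp its medians were 0.09 and 0.10. Pabpc1, the cytoplasmic poly(A)-binding protein, rose by 0.75 ± 0.15 and 0.78 ± 0.15, and Eef1b2, an exchange factor of elongation, rose by 0.59 ± 0.18 and 0.89 ± 0.18. Eef1a1 and Eef2, the main elongation factors, passed in neither comparison, at 0.23 and 0.31 and at 0.08 and 0.35.

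Regulators did not move as a block. Of 15 mTOR and TOP regulators, 2 were higher and 5 lower in F4/80high TAMs, and 1 was higher and 3 lower in F4/80low TAMs. Of all genes, 25.0% were higher and 28.0% lower, and 22.7% were higher and 29.2% lower. The list is too short to set its counts against these shares. Tsc1, a brake on mTOR complex 1, fell by 1.48 ± 0.23 in each subset, and its partner Tsc2, counted among the lower genes, was not well above background on any TAM array and was tested only through its PEC level. Larp1, which binds TOP messages and represses them when mTOR is inactive, rose by 1.59 ± 0.20 in F4/80high TAMs and had 0.24 ± 0.20 in F4/80low TAMs. Eif4ebp1, the translational repressor released by mTOR, fell by 1.16 ± 0.15 in F4/80high TAMs and rose by 1.00 ± 0.15 in F4/80low TAMs. The subsets differed in it by -2.16 ± 0.15. Mtor itself was lower in F4/80low TAMs, by -0.85 ± 0.28.

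Ribosome biogenesis factors were mixed as well, with 6 higher and 4 lower of 30 in F4/80high TAMs and 5 higher and 2 lower in F4/80low TAMs. None of these counts exceeded the share over all genes, which was 25.0% higher and 28.0% lower, and 22.7% higher and 29.2% lower. Wdr43, a small subunit processome protein, rose by 1.73 ± 0.22 in F4/80high TAMs, and Wdr12, of the PeBoW complex for the large subunit, fell by 1.37 ± 0.27. The RNA polymerase I list had 1 higher and 2 lower of 12, and 0 higher and 3 lower. Ubtf, which opens ribosomal DNA for transcription, rose by 1.77 ± 0.19 in F4/80high TAMs, and Polr1a, the largest subunit of the polymerase, fell by 1.27 ± 0.15. In the Myc network 3 of 6 genes were higher and 1 lower in F4/80high TAMs, and 1 was higher and 1 lower in F4/80low TAMs. These 2 lists are too short to set against the background, and Mycl, one of the 3, was well above background in F4/80high TAMs alone and was tested only through its level there. Mxd1, a Myc antagonist, rose by 5.38 ± 0.33 and 4.88 ± 0.33, while Myc passed in neither, at -0.34 ± 0.37 and 0.40 ± 0.37. Mnt, of the same list, was called lower in both, with log2 fold changes of -2.76 ± 0.17 and -1.68 ± 0.17. Max rose by 1.15 ± 0.19 in F4/80high TAMs and had 0.11 ± 0.19 in F4/80low TAMs.

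Genes for proteins of the mitochondrial ribosome are a separate set of nuclear genes. In the main values they were called lower in TAMs at a higher share than all genes. The share was not higher with the slide as a block. In F4/80low TAMs it was near that of all genes under median centring and quantile normalization. Of 77 tested, 4 were higher and 28 lower in F4/80high TAMs against PECs, and 3 were higher and 35 lower in F4/80low TAMs, where 28.0% and 29.2% of all genes were lower. Their median log2 fold changes were -0.34 and -0.47, where the cytosolic medians were 0.27 and 0.37. The medians stayed below 0 under each scaling, between -0.42 and -0.27 and between -0.60 and -0.26. The counts lower were 25, 31 and 40 in F4/80high TAMs under median centring, quantile normalization and normexp (26.4%, 28.6% and 29.4% of all genes). In F4/80low TAMs they were 20, 21 and 51 (24.1%, 25.8% and 32.8% of all genes). With the slide as a block the counts lower were 10 and 5 and the medians -0.18 and -0.24, and these counts lie below the 17.7% and 16.4% of all genes. Between the subsets the mitochondrial median was 0.15, against -0.08 for the cytosolic genes, and turned to -0.03 after quantile normalization.

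**Figure D5:**
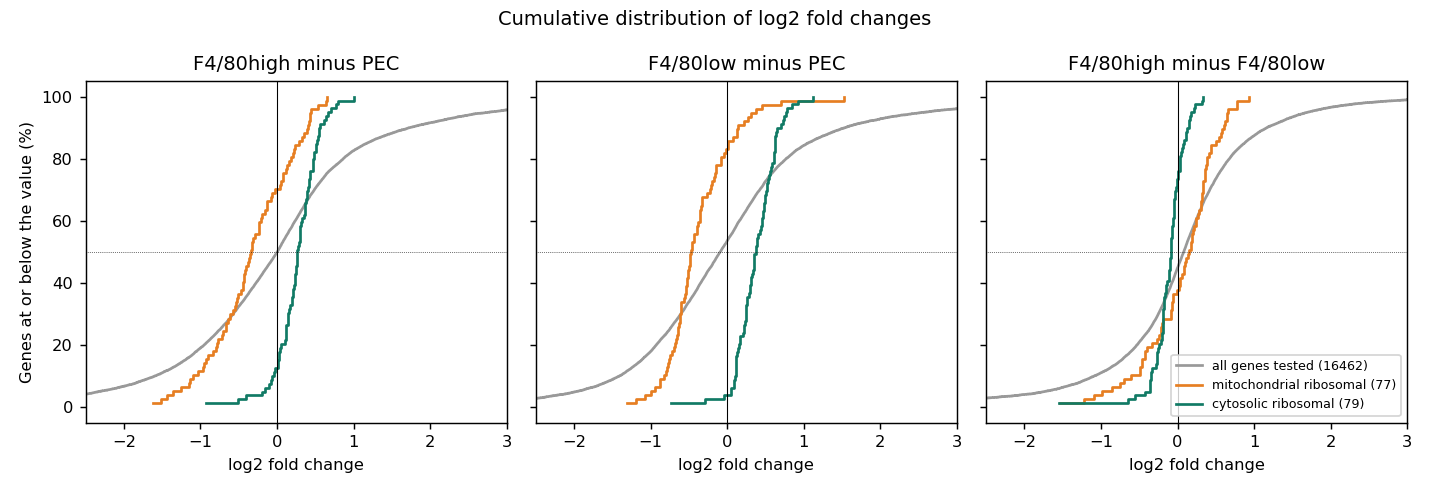
Curves give the share of genes (%) at or below each log2 fold change for 79 cytosolic ribosomal protein genes, 77 mitochondrial ones and all 16462 genes tested. The cytosolic curve lies right of 0 for 69 and 76 of 79 genes in the TAM against PEC panels, the mitochondrial curve crosses 50% at -0.34 and -0.47, and both cross near 0 between the subsets. The cytosolic curve is steeper than that of all genes.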

How the data were processed

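The scanner files hold linear spot intensity after background subtraction by Agilent Feature Extraction 10.5.1.1, per the file headers. The deposited value table holds log2 values of 9703 probes, with normalization unstated; its columns correlated with the scanner values at 0.960 to 0.978, and it served as an alternative. It covers 40 members. Outlier-marked spots were left out, log2 intensities were scaled to each array's 75th percentile, and spots of a probe were averaged. Probes well above background on all 3 arrays of a group were kept (21197 probes, 16462 genes). The number of arrays limits the precision.

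All genes were fitted over 9 arrays with limma 3.58.1 in R 4.3.3, with Benjamini-Hochberg adjustment within each comparison at 0.05, two-sided. The code was tested on simulated data. Named members were the 5 largest rises and falls past the threshold without overlap, the members of fixed role lists and those whose probes were called in opposite directions. Members, roles and other lists were chosen with earlier results of these data known. Same-numbered TAM arrays deviated together (correlations 0.234, 0.171 and 0.134), so the numbers were taken to pair them. PECs did not follow (-0.096 to 0.091). Alternatives covered scaling, filter, probe choice, the deposited table, samples fitted, membership, left-out arrays, slide and replicate block. Protein sequences were not used here. 1 gene of these lists, and the count of its list, are not reported here.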

Additional observations from a re-analysis of the deposited data

How the results depend on the processing

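Counts are given as higher and lower for F4/80high TAMs against PECs, then F4/80low TAMs against PECs, then between the subsets. Normexp gave 11 and 1, 7 and 2, with medians 0.10 and 0.10. Quantile normalization gave 8 and 2, 20 and 2, with medians 0.10 and 0.21, and 6 lower between the subsets (16.3% of all genes). Median centring gave 34, then 52 and 0 with a median of 0.53, and 4 lower between the subsets (16.2% of all genes). Without a filter the counts were 11, then 32 and 0, where 4121, then 9644 and 4744 of all 36492 genes were called. The mean of a gene's probes gave 1 lower in F4/80high TAMs and 3 lower between the subsets. Of all 16462 genes, 4663 and 2324 were lower there. Every probe on its own gave 40 and 8, 59 and 3, and 9 lower between the subsets (13.6% of all kept probes). The deposited table, with 40 members, gave 8 and 7, 28 and 2, and 0 and 17, with medians 0.056, 0.34 and -0.26, where 33.5% and 44.6%, 34.4% and 41.4%, and 27.9% and 27.6% of all its genes were called. The same 40 members gave 12 and 0, and 22 and 1 in the main values, an alternative added after seeing the data. Of all genes in the main values, 25.0% and 28.0%, and 22.7% and 29.2% were called. Wider membership gave 1 lower in F4/80high TAMs, and fitting only the compared groups gave 0 lower in F4/80low TAMs. With the replicate block over all arrays the counts were 14 and 0, 24 and 0, and 0 and 1. Of all 16462 genes, 4058 and 4528, 3674 and 4675, and 2952 and 2234 were called with that block. Over the TAM arrays alone it gave 0 lower (12.8% of all genes). With the slide as a block the counts were 5 and 0, 11 and 0, and 0 and 2, with medians 0.39 and 0.47. Between the subsets 14.2% of all genes were lower under it. Within the slide of the TAM arrays, which holds PEC replicate 1 as its only control, the medians were the same. Leaving out each array gave 7 to 20 higher and 0 to 1 lower in F4/80high TAMs, 20 to 33 higher and 0 to 1 lower in F4/80low TAMs, and 0 to 2 lower between the subsets. The 7, or 8.86% of members, came without F4/80high replicate 1, where 3434 of all 16462 genes were higher. Without a PEC array the members higher were 10 (replicate 3), 11 (replicate 1) or 12 (replicate 2). Of all genes 3260, 4096 and 3500 were then higher. Without F4/80high replicate 3 it was also 12 members, and 3620 of all genes. The F4/80low counts of 20 came without PEC replicate 2 or F4/80low replicate 3, where 3106 and 3282 of all genes were higher. Those of 21 came without PEC replicate 3 or F4/80low replicate 1, where 2895 and 3452 of all genes were higher. The Rpsa call was lost without F4/80high replicates 2 or 3 or F4/80low replicates 1 or 3. The Rps27l call was kept in 8 of 21 alternatives and lost without PEC replicate 2 or 3, without each F4/80low array, and without F4/80high replicates 2 or 3. Values that turned were Rpl22 in F4/80high TAMs (-0.68 as a mean of probes, -1.29 in the deposited table), Rps3 there (-0.071 as a mean of probes) and Rps6 between the subsets (-0.28 in the deposited table). Of 29 calls on named members, 13 were lost under normexp, 10 under quantile normalization, 20 with the slide as a block and 7 with the replicate block. The cause of these changes was not tested.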
